A study of Homo sapiens with 12 samples.

Results

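WNT signalling was followed in D283 medulloblastoma cells through 10 genes, chosen by name from the count table: the ligand gene WNT2B, the R-spondin receptor genes LGR4 and LGR5, the inhibitor genes APCDD1, AXIN2 and NKD1, and the TCF/LEF factor genes LEF1, TCF7, TCF7L1 and TCF7L2. All 10 were found among the 49651 genes with counts, and 8 of them had enough counts to be tested among 14704 genes. D283 is an established human medulloblastoma line. RNA sequencing counts covered 3 libraries in which ABL1 and ABL2, the genes of the ABL tyrosine kinases, had been inactivated genetically, and 3 libraries of scrambled controls, all from the same line and medium. The method of inactivation, and whether the cells of a group came from 1 clone, a pool or separate cultures, are not given in the sources used here, so p-values measure the spread between these libraries only.

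WNT ligands bind Frizzled receptors with LRP5 or LRP6 and halt the destruction complex, which otherwise marks beta-catenin for degradation. Beta-catenin that escapes enters the nucleus and works with TCF/LEF factors, which without it recruit repressors. R-spondins, bound by LGR receptors, keep Frizzled at the cell surface. Several targets of the pathway, such as AXIN2, NKD1 and APCDD1, encode its own inhibitors. In medulloblastoma, activated beta-catenin defines the WNT subgroup, while D283 is commonly used as a model of Group 3 tumours with high MYC.

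The inactivated libraries held 36140406, 49034159 and 34292341 counts, and the control libraries 35893081, 34951232 and 33505903 counts. At this depth a count of 0 allows up to 3 counts, or 0.0612 to 0.0895 CPM (counts relative to the library size). Levels are CPM scaled by TMM, trimmed mean of M values, as mean ± SD of 3 libraries per group. The targeted genes were measured first. ABL1 averaged 61.9 ± 0.625 CPM in inactivated libraries and 153 ± 4.82 CPM in control libraries, a log2 fold change (inactivated over control) of -1.31 ± 0.043 (SE). ABL2 averaged 104 ± 7.60 CPM in inactivated libraries and 138 ± 5.58 CPM in control libraries, a log2 fold change of -0.41 ± 0.050. Both fell by edgeR's quasi-likelihood F test with Benjamini-Hochberg adjustment over all tested genes (adjusted p 1.1e-16 for ABL1 and 5.4e-07 for ABL2), and mRNA of both remained. Of 8 Group 3 medulloblastoma markers, NRL alone had no read, and their summed level was 3240 to 3339 CPM in inactivated libraries against 2675 to 2704 CPM in control libraries. Most of them rose: IMPG2 (log2 fold change 2.24), EYS (2.26), MAB21L2 (0.85), NPR3 (0.23), GABRA5 (0.14) and MYC (0.13). OTX2 alone fell, at 665.5 ± 11.4 CPM in inactivated libraries and 829.8 ± 16.1 CPM in control libraries (-0.32, edgeR adjusted p 5.4e-07). EYS shares 13% of its exon bases with PHF3, a more abundant gene on the opposite strand. Whether PHF3 reads entered the EYS counts was not tested.

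Of the 8 tested members, WNT2B and AXIN2 rose, APCDD1, LGR4, LGR5, TCF7 and TCF7L2 fell, and NKD1 did not pass the threshold of an adjusted p of 0.05. In this comparison 59.3% of all tested genes passed, 29.5% higher and 29.8% lower, so a called member is not unusual among these genes. The sizes differed more. APCDD1, LGR5 and WNT2B passed the threshold and changed at least 2-fold, which 12.8% of all tested genes did. Values of the groups did not overlap for 7 of the 8 tested members, and for 63.2% of all tested genes. The median log2 fold change was -0.46 over the 8 tested members and 0.003 over all tested genes.

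**Figure D1:**
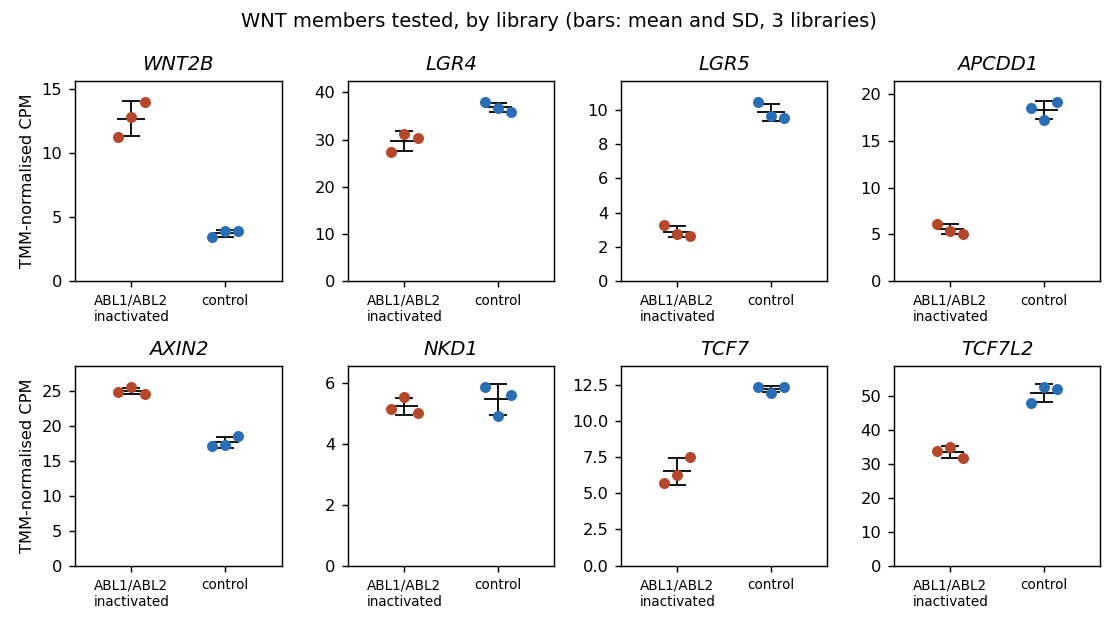
Each panel plots the TMM-normalised CPM (vertical axis, from 0) of 1 tested member in the 3 libraries with ABL1 and ABL2 inactivated and the 3 control libraries, with bars for the mean and SD. WNT2B and AXIN2 lie higher in every inactivated library, APCDD1, LGR4, LGR5, TCF7 and TCF7L2 lie lower, and the points of NKD1 overlap between the groups.

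WNT2B encodes a secreted WNT ligand and lies on chromosome 1 at 112466541 to 112530165 (GRCh38.p14, plus strand). It had 11.3, 12.8 and 13.9 CPM in the inactivated libraries, against 3.43, 3.89 and 3.88 CPM in the control libraries. Every inactivated library was far above every control library. The means were 12.7 ± 1.35 CPM in inactivated libraries and 3.74 ± 0.262 CPM in control libraries, and WNT2B rose 3.40-fold (log2 fold change 1.76 ± 0.10, 95% interval 1.56 to 1.97, adjusted p 1.5e-12 by edgeR's quasi-likelihood test). In size this change was exceeded by 5.24% of the tested genes. Of its exon bases, 21.2% are shared with ST7L on the opposite strand. Whether ST7L reads entered the WNT2B counts was not tested. ST7L averaged 16.99 ± 1.04 CPM in inactivated libraries and 16.96 ± 0.793 CPM in control libraries, with a log2 fold change of 0.006 (edgeR adjusted p 0.947).

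LGR4 and LGR5 encode receptors for R-spondins; LGR5 is best known as a marker of intestinal stem cells and as a WNT target there. LGR4, on chromosome 11 at 27365961 to 27472790 (minus strand), had 27.3, 31.3 and 30.3 CPM in the inactivated libraries, against 37.9, 36.7 and 35.9 CPM in the control libraries. The groups did not overlap, but the gap was small. LGR4 fell with a log2 fold change of -0.31 ± 0.058 (95% interval -0.43 to -0.19, edgeR adjusted p 8.6e-05), a size that 45.9% of the tested genes exceeded. LGR5, on chromosome 12 at 71439129 to 71586310 (plus strand), had 3.25, 2.76 and 2.63 CPM in the inactivated libraries, against 10.4, 9.62 and 9.54 CPM in the control libraries. All inactivated libraries were well below all control libraries. LGR5 fell to 0.292 of its control level (log2 fold change -1.78 ± 0.10, 95% interval -2.00 to -1.56, edgeR adjusted p 2.8e-12), with 90 to 137 counts per inactivated library behind the value. In bulk RNA, fewer LGR5-expressing cells and less LGR5 mRNA per cell cannot be told apart.

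The fall of LGR5 exceeded that of LGR4, so their balance moved. To compare levels between genes, CPM was divided by the summed exon length in kilobases, giving RPKM. LGR5 made up 11.0%, 8.39% and 8.26% of the summed RPKM of LGR4 and LGR5 in the inactivated libraries, against 22.3%, 21.4% and 21.6% in the control libraries. The share of LGR5 was thus lower in each inactivated library, at 9.22% ± 1.55 in inactivated libraries and 21.7% ± 0.450 in control libraries (SD, n = 3 each; exact two-sided permutation p 0.1, the smallest that 3 against 3 libraries can give). Their summed level was 6.22 ± 0.337 RPKM in inactivated libraries and 8.97 ± 0.280 RPKM in control libraries, so most R-spondin receptor mRNA of this pair came from LGR4 in both groups.

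APCDD1 encodes a membrane protein that inhibits WNT signalling by binding ligand and LRP5, and is itself a target of the pathway. It lies on chromosome 18 at 10454635 to 10489949 (plus strand). It had 6.15, 5.38 and 5.09 CPM in the inactivated libraries, against 18.6, 17.3 and 19.1 CPM in the control libraries. Every inactivated library was below every control library by a wide margin. APCDD1 fell to 0.302 of its control level (log2 fold change -1.73 ± 0.083, 95% interval -1.90 to -1.55, edgeR adjusted p 9.2e-14), and 5.39% of the tested genes changed more in size. Over the 6 libraries, the gene whose centred log2 profile lay nearest to that of LGR5 among 10138 genes compared was APCDD1, and the reverse also held (Euclidean distance 0.136 on log2(CPM + 0.5)). The gene nearest to WNT2B was STAT3 (distance 0.239), a transcription factor gene with 219.7 ± 2.22 CPM in inactivated libraries and 70.7 ± 0.544 CPM in control libraries. With 6 libraries in 2 groups, such a distance mostly reads the size of the group difference.

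AXIN2 encodes a scaffold of the destruction complex and is the most widely used reporter of beta-catenin activity. It lies on chromosome 17 at 65528563 to 65561648 (minus strand). It had 24.9, 25.5 and 24.6 CPM in the inactivated libraries, against 17.1, 17.2 and 18.5 CPM in the control libraries. The groups were apart and each was tight. AXIN2 rose 1.42-fold (log2 fold change 0.51 ± 0.061, 95% interval 0.38 to 0.63, edgeR adjusted p 3.1e-07), in the direction opposite to LGR5 and APCDD1. Of its 49 neighbouring genes, defined below, 42 were higher and 3 lower, with a median log2 fold change of 0.44.

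NKD1, another target of the pathway, encodes a Dishevelled-binding inhibitor and lies on chromosome 16 at 50548396 to 50649249 (plus strand). It had 5.14, 5.52 and 4.998 CPM in the inactivated libraries, against 5.85, 4.896 and 5.599 CPM in the control libraries, and the groups overlapped. Its log2 fold change was -0.06 ± 0.10 (edgeR adjusted p 0.662), with a 95% interval of -0.28 to 0.16 that leaves out changes of the size seen in AXIN2 or APCDD1. The 3 inhibitor genes of the set therefore gave 3 different readings: APCDD1 lower, AXIN2 higher and NKD1 not past the threshold.

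Of the TCF/LEF genes, TCF7L2 and TCF7 had enough counts to be tested. TCF7L2, the factor best known from intestinal epithelium, lies on chromosome 10 at 112950247 to 113167678 (plus strand). It had 33.8, 35.0 and 31.7 CPM in the inactivated libraries, against 47.9, 52.5 and 52.1 CPM in the control libraries. No inactivated library reached the lowest control library. TCF7L2 fell with a log2 fold change of -0.60 ± 0.055 (95% interval -0.71 to -0.49, edgeR adjusted p 4.1e-09).

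TCF7, the factor known from T cells and itself a target of beta-catenin in other tissues, lies on chromosome 5 at 134108218 to 134148210 (plus strand). It had 5.71, 6.29 and 7.51 CPM in the inactivated libraries, against 12.3, 11.9 and 12.3 CPM in the control libraries. The groups were apart, and the inactivated libraries scattered more, with a coefficient of variation of 14.1% between inactivated libraries, where counting alone gives 6.29%, and of 1.87% between control libraries, where counting gives 4.88%. TCF7 fell with a log2 fold change of -0.91 ± 0.091 (95% interval -1.10 to -0.72, edgeR adjusted p 1.8e-08). It shares 6.58% of its exon bases with VDAC1, a far more abundant gene on the opposite strand, which had 456.8 ± 18.3 CPM in inactivated libraries and 488 ± 13.3 CPM in control libraries (log2 fold change -0.10, edgeR adjusted p 0.0557). Whether VDAC1 reads entered the TCF7 counts was not tested.

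LEF1 and TCF7L1 were at or near the counting floor and were not tested. LEF1, the lymphoid enhancer factor gene on chromosome 4 at 108047548 to 108168932 (minus strand), had 1, 0 and 1 counts in the inactivated libraries and 0, 2 and 0 counts in the control libraries. A difference in LEF1 was not detectable at this depth. TCF7L1, known mainly as a repressor in stem cells, lies on chromosome 2 at 85133392 to 85310387 (plus strand) and had 5, 1 and 2 counts in the inactivated libraries and 1, 2 and 2 counts in the control libraries. TCF7L1 is also listed a further time on another scaffold, with 0 counts in all libraries. Among protein-coding genes with such a further entry, 69.7% (1104 of 1584) held at most 3 counts in every library. Among protein-coding genes with 1 entry, 25.4% (4565 of 17951) did. These sets of genes were not matched in any other way. Whether the further entry lowered the TCF7L1 count, or the count reflects low mRNA, was not tested. Of the 3 other protein-coding genes listed on that scaffold, 0 were at the floor. Per library, TGOLN2 held 658 to 983 counts, ELMOD3 178 to 272 and RETSAT 3 to 22.

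**Figure D2:**
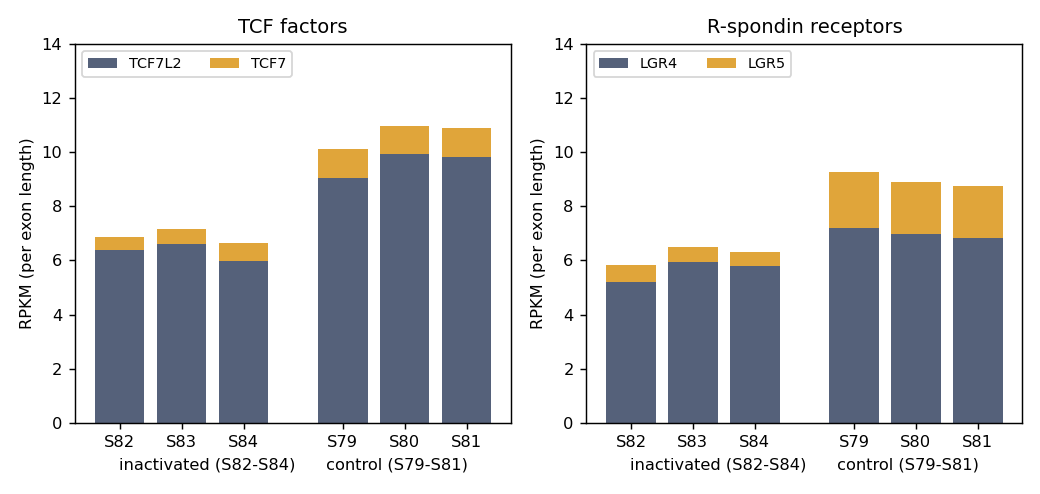
Stacked bars give the RPKM (vertical axis, from 0) of TCF7L2 and TCF7 (left panel) and of LGR4 and LGR5 (right panel) in each library, the inactivated libraries S82 to S84 left of the control libraries S79 to S81. The TCF bars are lower in every inactivated library while TCF7 keeps a small part of each, and the LGR5 part of the LGR bars is smaller in every inactivated library.

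The 4 TCF/LEF genes were summed as counted, and the count of TCF7L1 in the sum may not reflect its mRNA. Their summed level was 6.93, 7.17 and 6.66 RPKM in the inactivated libraries, against 10.1, 11.0 and 10.9 RPKM in the control libraries. Each inactivated library was below each control library (exact two-sided permutation p 0.1, the smallest possible). TCF7L2 made up 91.3% ± 1.39 of this counted sum in inactivated libraries and 89.8% ± 0.494 in control libraries (SD, n = 3 each; exact permutation p 0.3). TCF7 made up 8.25% ± 1.42 in inactivated libraries and 9.995% ± 0.594 in control libraries (exact permutation p 0.3), and its shares overlapped between the groups. The plot of levels by library shows TCF7L2 and TCF7 both lower in every inactivated library, and no difference in the share of TCF7 beyond the spread between libraries. Whether the low count of TCF7L1 reflects its mRNA was not tested, so the make-up of the whole family is not known.

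Ranked by RPKM among the 8 tested members, TCF7L2 stood first and LGR4 next in both groups. In inactivated libraries AXIN2, WNT2B, APCDD1, LGR5, TCF7 and NKD1 followed, and the library ranges overlapped between WNT2B and APCDD1 and between LGR5 and TCF7. In control libraries APCDD1 and AXIN2 came next with overlapping ranges, then LGR5, TCF7, and NKD1 with WNT2B, which overlapped. WNT2B thus stood among the lowest detected members in control libraries, at 0.305 RPKM, and above LGR5 in inactivated libraries, at 1.04 RPKM against 0.570 RPKM for LGR5. The exon length joins all transcripts of a gene and is 12252 bases for WNT2B, 11432 for TCF7 and 17039 for NKD1, so the RPKM of these genes would be higher if shorter transcripts prevail.

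A stretch of the genome that moved together lies around AXIN2. Tested genes with at least 5 CPM in the mean of either group and within 5 Mb of a member were taken as its neighbours. The 49 neighbours of AXIN2 on chromosome 17 had a median log2 fold change of 0.44, with 42 higher and 3 lower, and AXIN2 lay 0.06 above that median. Of these neighbours, 26 changed more than AXIN2 in size. The rise of AXIN2 and that of its surroundings cannot be told apart in these data. The other called members differed more from the median of their surroundings. Their neighbours' medians lay between -0.20 for APCDD1, with 18 neighbours lower and 6 higher, and 0.08 for LGR4. LGR5 lay -1.76 from the median of its 27 neighbours, of which 0 changed more in size. APCDD1 lay -1.53 from the median of 31, of which 1 changed more, and WNT2B lay 1.85 from the median of 62, of which 2 changed more. TCF7 lay -0.81 from its neighbours' median, and 5 of its 53 neighbours changed more. For TCF7L2 the distance was -0.46, with 7 of 27 neighbours changing more, and for LGR4 it was -0.39, with 5 of 15 changing more, so these members stood less apart.

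**Figure D3:**
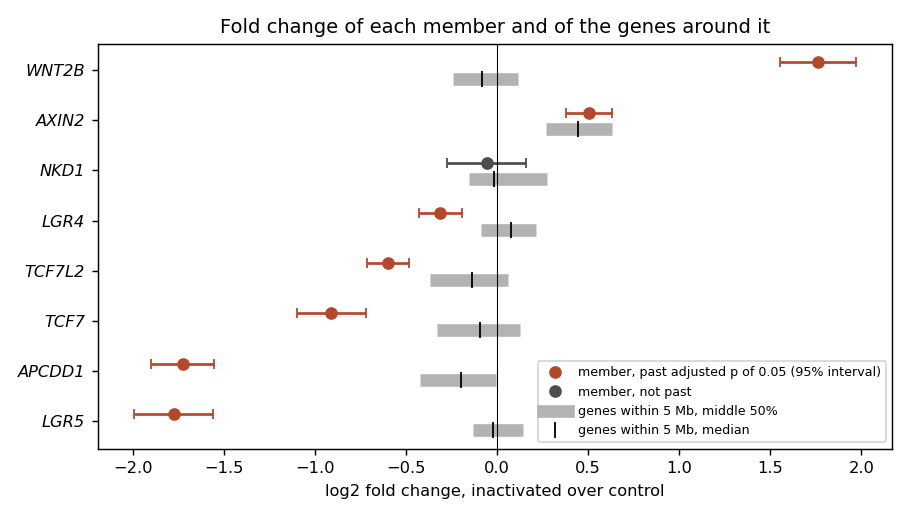
Points with bars give the log2 fold change (inactivated over control, horizontal axis) of each tested member with its 95% interval, and grey bars the middle 50% of the tested genes within 5 Mb, with a tick at their median. AXIN2 falls inside the grey bar of its neighbours, NKD1 too, and the other 6 members fall outside theirs.

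Promoter sequences of RefSeq (GRCh38.p14, 250 bases before to 50 after a start) matched 7 members with 11 windows. They were searched on both strands for 4 forms of the TCF/LEF motif that share their first 5 letters, so a position can match only 1 of them. Of all 35116 windows in the table, 2.62% held CTTTGAT, 5.20% held CTTTGTT, 4.43% held CTTTGAA and 2.77% held CTTTGTA. At least 1 form occurred in 13.8% of all windows and in 2 of the 11 windows of members, CTTTGTT in each case. LGR5, AXIN2 and NKD1 had no window. The matches lay in 1 window of TCF7 and 1 window of TCF7L2, at starts inside the genes. Both windows are shown with the match in capitals. The TCF7 match reads on the opposite strand, 50 bases before the start, and the TCF7L2 match on the gene's strand, 133 bases before the start.
TCF7, chr5:134123368-134123667, plus strand: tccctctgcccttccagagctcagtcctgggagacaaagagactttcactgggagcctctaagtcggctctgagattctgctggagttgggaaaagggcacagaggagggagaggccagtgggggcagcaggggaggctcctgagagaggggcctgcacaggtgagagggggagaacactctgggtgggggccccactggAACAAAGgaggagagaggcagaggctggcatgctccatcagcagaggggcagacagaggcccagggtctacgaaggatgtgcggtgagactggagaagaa
TCF7L2, chr10:113126383-113126682, plus strand: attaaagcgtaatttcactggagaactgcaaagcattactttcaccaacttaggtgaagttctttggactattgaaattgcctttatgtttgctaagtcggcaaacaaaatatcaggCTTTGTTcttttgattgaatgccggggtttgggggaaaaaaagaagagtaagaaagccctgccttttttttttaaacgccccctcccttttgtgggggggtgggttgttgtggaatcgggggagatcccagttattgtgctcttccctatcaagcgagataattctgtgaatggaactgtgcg
Also shown are the window of APCDD1, the member with the largest fall that has one, and the first of 2 windows of WNT2B, with the largest rise. They hold no match, so no capitals.
APCDD1, chr18:10454385-10454684, plus strand: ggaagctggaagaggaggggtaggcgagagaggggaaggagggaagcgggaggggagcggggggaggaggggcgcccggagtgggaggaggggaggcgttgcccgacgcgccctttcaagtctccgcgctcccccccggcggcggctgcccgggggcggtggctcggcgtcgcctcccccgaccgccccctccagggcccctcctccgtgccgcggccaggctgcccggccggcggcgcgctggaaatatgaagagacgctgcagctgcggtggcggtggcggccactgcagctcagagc
WNT2B, chr1:112466291-112466590, plus strand: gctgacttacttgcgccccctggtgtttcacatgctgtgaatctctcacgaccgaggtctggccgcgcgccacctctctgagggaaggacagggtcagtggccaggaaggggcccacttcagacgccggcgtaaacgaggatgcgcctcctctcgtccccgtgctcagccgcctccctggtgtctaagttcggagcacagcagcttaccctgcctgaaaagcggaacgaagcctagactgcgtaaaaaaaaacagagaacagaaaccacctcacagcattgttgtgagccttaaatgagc
The APCDD1 window is 76.0% G and C, the WNT2B window 57.7%, the TCF7 window 61.0% and the TCF7L2 window 42.7%. Counts per gene do not show which start was used, and a match of letters is not a measured site.

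The rest of the pathway was read from 119 other genes listed by role, of which 81 were tested. Of these, 30 rose, 34 fell and 17 did not pass the threshold, where 59.3% of all tested genes were called. Their median log2 fold change was -0.07, against 0.003 over all tested genes. The pathway did not move one way as a whole, and genes within a role often went in opposite directions.

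**Figure D4:**
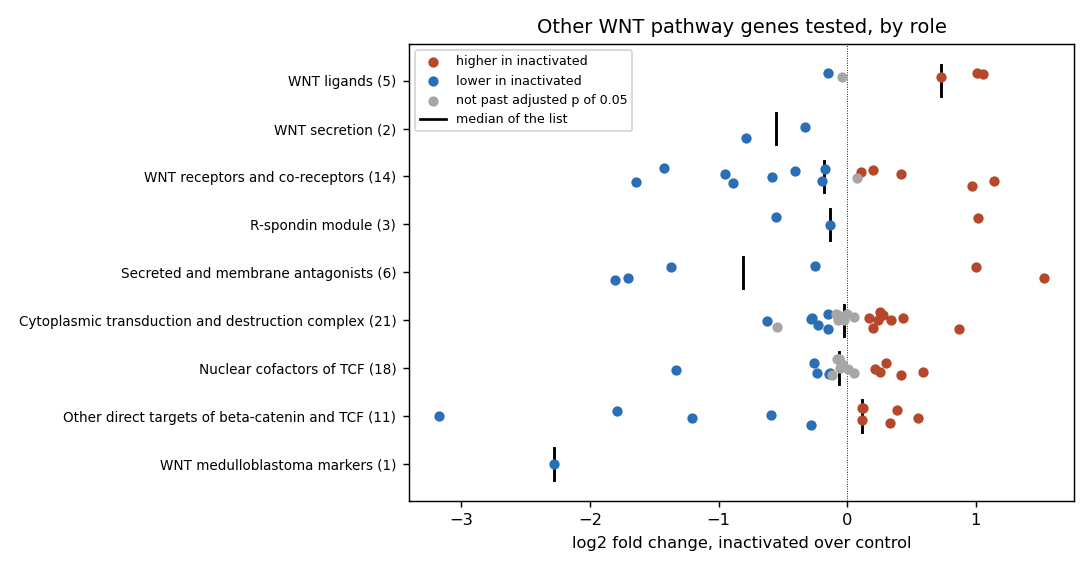
Each point is the log2 fold change (inactivated over control, horizontal axis) of 1 tested gene of the WNT pathway outside the 10 members, by role (vertical axis, number tested in brackets), coloured by its call, with a line at each role's median. Receptors spread from FZD4 and FZD9 on the lower side to FZD2 on the higher side. The cytoplasmic and nuclear roles have medians near 0, with single genes such as TNKS2 and PYGO1 further out.

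Among 18 WNT ligand genes besides WNT2B, 13 had too few counts, 3 of the 5 tested rose and 1 fell (median log2 fold change 0.73). Of the 13, WNT3 and WNT9B have a further scaffold entry like TCF7L1. The ligand that fell lost its call with DESeq2, with either lane alone, without control replicate 1 and without inactivated replicate 1. In each of these settings 0 ligands were called lower. Of the ligands that rose, 2 were called in place of 3 with DESeq2, with either lane alone, without control replicate 2 or 3, and without inactivated replicate 1 or 3. WNT10B averaged 4.71 ± 0.204 CPM in inactivated libraries and 2.34 ± 0.189 CPM in control libraries (log2 fold change 1.01, edgeR adjusted p 4.1e-07). WNT11 averaged 1.42 ± 0.332 CPM in inactivated libraries and 0.667 ± 0.0302 CPM in control libraries (1.06, adjusted p 0.00069), and WNT9A 0.861 ± 0.161 CPM in inactivated libraries and 0.511 ± 0.209 CPM in control libraries (0.73, adjusted p 0.0424), where its 54 neighbours on chromosome 1 within 5 Mb had a median of 0.36, with 39 higher and 6 lower. WNT5A, a ligand known for signalling without beta-catenin, fell slightly, to 39.8 ± 1.71 CPM in inactivated libraries against 44.0 ± 1.89 CPM in control libraries (adjusted p 0.0208). Both tested genes of WNT secretion fell, although with lane 1 alone 1 of them was called. WLS, the carrier that takes WNT proteins to the cell surface, averaged 279 ± 8.38 CPM in inactivated libraries and 482 ± 7.41 CPM in control libraries (log2 fold change -0.79, edgeR adjusted p 2.4e-13). PORCN, the acyltransferase that lipidates WNT proteins, averaged 6.76 ± 0.225 CPM in inactivated libraries and 8.48 ± 0.328 CPM in control libraries (-0.32, adjusted p 0.0027).

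Of 14 tested receptor and co-receptor genes, 5 rose and 8 fell (median -0.18). FZD4 had the lowest p, at 22.5 ± 1.81 CPM in inactivated libraries and 70.4 ± 2.10 CPM in control libraries (log2 fold change -1.64, edgeR adjusted p 2.9e-16). FZD6 averaged 51.8 ± 1.13 CPM in inactivated libraries and 100.2 ± 2.59 CPM in control libraries (-0.95), and FZD3 50.1 ± 2.88 CPM in inactivated libraries and 25.5 ± 1.67 CPM in control libraries (0.97). FZD2 averaged 46.8 ± 3.48 CPM in inactivated libraries and 21.2 ± 0.732 CPM in control libraries (1.14); it lies on chromosome 17, where its 120 neighbours had a median of 0.48. The most abundant Frizzled genes, added after their values were seen, moved less: FZD5, at 265 ± 10.5 CPM in inactivated libraries and 252 ± 6.34 CPM in control libraries, did not pass (adjusted p 0.133), FZD1 fell (-0.19) and FZD7 rose (0.42). FZD9, low in both groups, fell (-1.42), and all 35 of its neighbours on chromosome 7 were lower, with a median of -1.14. LRP5, a co-receptor gene, fell to 19.7 ± 0.127 CPM in inactivated libraries against 36.5 ± 2.64 CPM in control libraries (-0.89, edgeR adjusted p 3.9e-11). Its neighbours on chromosome 11 had a median of -0.02. LRP6, the main co-receptor gene, has a further scaffold entry like TCF7L1 and held 3 to 8 counts per library. Of the R-spondin module, RSPO3, a ligand of LGR receptors, rose to 5.79 ± 0.655 CPM in inactivated libraries against 2.85 ± 0.203 CPM in control libraries (1.02, edgeR adjusted p 2.2e-07; neighbours' median 0.48), and RSPO2 fell to 1.94 ± 0.126 CPM in inactivated libraries against 2.85 ± 0.319 CPM in control libraries (-0.56, adjusted p 0.00296). ZNRF3, a ligase that removes Frizzled from the surface, fell with a log2 fold change of -0.13 (adjusted p 0.0393), to 28.7 ± 0.450 CPM in inactivated libraries against 31.5 ± 0.948 CPM in control libraries. With DESeq2, with the other scaling factors and with either lane alone, 1 gene of the module was called lower in place of 2. The same held with control replicate 1 or 2 or any 1 inactivated library left out.

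Antagonist genes had a median of -0.81, with 4 of the 6 tested lower and 2 higher, and 10 at too few counts. NKD2, among the 10, has a further scaffold entry like TCF7L1. With DESeq2, with either lane alone, without control replicate 1 and without inactivated replicate 2, 1 antagonist gene was called higher in place of 2. DKK3, of the Dickkopf family, averaged 1.91 ± 0.245 CPM in inactivated libraries and 4.99 ± 0.327 CPM in control libraries (log2 fold change -1.37). SFRP1 and SFRP5, secreted Frizzled-related proteins, were low in both groups, at 0.283 ± 0.0551 CPM in inactivated libraries and 0.951 ± 0.239 CPM in control libraries for SFRP1 (-1.70), and at 0.294 ± 0.0812 CPM in inactivated libraries and 1.02 ± 0.0915 CPM in control libraries for SFRP5 (-1.80). KREMEN2, a receptor of Dickkopf proteins, averaged 2.40 ± 0.208 CPM in inactivated libraries and 0.820 ± 0.0464 CPM in control libraries (1.53). The 4 passed edgeR's test, as did the fall of APCDD1, itself an antagonist.

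The 21 cytoplasmic genes were all tested, and 8 rose, 6 fell and 7 did not pass (median -0.03). TNKS, among the 7, has a further scaffold entry like TCF7L1. The tested entry held 14 to 28 counts per library and the further entry 67 to 100, which the test left out. CTNNB1, the gene of beta-catenin, which the naming rule did not pick and which was added after its values were seen, rose modestly, at 470.0 ± 6.11 CPM in inactivated libraries and 398 ± 15.9 CPM in control libraries (log2 fold change 0.24, edgeR adjusted p 3.3e-05). The largest rise was that of TNKS2, a tankyrase that marks AXIN proteins for degradation, at 125.5 ± 4.96 CPM in inactivated libraries and 68.5 ± 1.67 CPM in control libraries (0.87). CSNK1A1, the kinase that primes beta-catenin, fell (-0.27), while CSNK1D (0.44, with a neighbours' median of 0.48 on chromosome 17) and AMER1 (0.34) rose. Of 18 nuclear cofactor genes, 5 rose, 5 fell and 8 did not pass (median -0.06). BCL9 and PYGO1, both of which take part in the beta-catenin complex on DNA, went opposite ways: BCL9 averaged 164 ± 2.61 CPM in inactivated libraries and 108.5 ± 1.83 CPM in control libraries (0.59), and PYGO1 18.8 ± 1.27 CPM in inactivated libraries and 47.5 ± 1.27 CPM in control libraries (-1.34). SMARCA4 (0.26) and HDAC2 (0.42, neighbours' median 0.48) rose.

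Other genes known as direct targets of beta-catenin and TCF moved both ways, 6 higher and 5 lower of 11 tested (median 0.12). BMP4, a secreted growth factor, averaged 12.7 ± 0.684 CPM in inactivated libraries and 29.4 ± 0.659 CPM in control libraries (log2 fold change -1.21, edgeR adjusted p 3.9e-13). PROX1, a homeobox factor, averaged 8.57 ± 0.695 CPM in inactivated libraries and 29.7 ± 0.672 CPM in control libraries (-1.79, adjusted p 2.3e-15), while its neighbours on chromosome 1 had a median of 0.37. TNFRSF19 fell (-0.59) and PPARD rose (0.55, with a neighbours' median of 0.52). MYC, named for its role in D283 although its groups overlapped, averaged 526 ± 29.1 CPM in inactivated libraries and 481.5 ± 19.2 CPM in control libraries (0.13, edgeR adjusted p 0.0216). SP5 and CCND1 were among the 6 with too few counts. Without control replicate 2, or without inactivated replicate 3, 3 of these targets were called higher in place of 6. Of 5 markers of WNT-subgroup medulloblastoma, WIF1, DKK2 and EMX2 had 0 counts in all libraries, GAD1 had 0 to 2 counts per library, and TNC fell to 0.852 ± 0.0481 CPM in inactivated libraries against 4.13 ± 0.736 CPM in control libraries (-2.28, adjusted p 2.4e-10).

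Of the markers of other cell types, some genes moved with the groups and others did not. The summed level of 4 endothelial markers was 9.66 to 11.0 CPM in inactivated libraries and 4.12 to 4.46 CPM in control libraries, with CDH5 at the counting floor. KDR alone rose among them, at 8.41 ± 0.690 CPM in inactivated libraries and 2.22 ± 0.342 CPM in control libraries, while VWF did not pass (edgeR adjusted p 0.557) and PECAM1 had too few counts. The 5 fibroblast markers summed to 15.1 to 17.3 CPM in inactivated libraries and 11.4 to 12.0 CPM in control libraries, with COL3A1 at 0. Of these, COL1A1 rose (log2 fold change 0.90) and DCN fell (-1.75, edgeR adjusted p 7.9e-09). The 4 microglia and macrophage markers summed to 0.711 to 1.35 CPM in inactivated libraries and 0.591 to 0.963 CPM in control libraries, with PTPRC and AIF1 at the floor, and the 3 astrocyte markers to 0.0273 to 0.222 CPM in inactivated libraries and 0 to 0.0301 CPM in control libraries, with GFAP and ALDH1L1 at the floor. NRL, COL3A1, PTPRC and AIF1 also have a further scaffold entry, and the part of these markers in the members' changes was not tested.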

How the data were processed

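Raw counts per gene and lane were deposited by the authors as whole numbers, not normalized. Per the submitters' processing notes, the tools were STAR 2.7.2b and featureCounts 1.6.3 for GRCh38.p14, beside DESeq2 1.36.0, MultiQC 1.11 and FastQC 0.11.9. Per the labels' protocols, mRNA was enriched from total RNA and sequenced as 50 bp paired-end reads. The deposited table also gives exon lengths in bases. Strand setting and treatment of multiply aligned reads are not given in the sources used here.

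Of 49677 genes, 26 with no counts entered were left out. The 2 lanes of each of 6 libraries were summed, since lanes are not replicates: the chi-square per degree of freedom was 1.13 to 1.21 between lanes of 1 library, 3.17 to 13.6 between libraries of 1 group and 86.7 to 111 between groups. The first principal component, with 85.5% of the variance, separated the groups. Genes were filtered with filterByExpr (minimum count 10, minimum total count 15), scaled by TMM and tested with edgeR 4.0.16 by the two-sided quasi-likelihood F test, with Benjamini-Hochberg adjustment over 14704 genes. The word rose or fell is used of genes with an adjusted p under 0.05. Each tested member had at least 90 counts in every library. Shares were compared by exact permutation over the 20 splits of 6 libraries. The floor of 3 counts covers counting error only.

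The members and lists were chosen with earlier results of these data known, and no list was tested. From each pathway list the text names up to 4 called genes with non-overlapping groups, taken by lowest p, beside all members, ABL1, ABL2 and the genes nearest in profile to the 2 members with the largest change. VDAC1, ST7L, PHF3, CTNNB1, MYC, LRP5, LRP6, TNKS, FZD1, FZD5, FZD7 and FZD9 were added after their values were seen. The same holds for TGOLN2, ELMOD3, RETSAT, single markers and listed genes with too few counts. Alternatives were DESeq2 1.42.0, limma-voom (limma 3.58.1), other scaling factors, no filter, each lane alone, each library left out and a null of a 1.5-fold change. Some of the markers checked are not reported here.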

Additional observations from a re-analysis of the deposited data

How the results depend on the processing

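The null of a 1.5-fold change is given apart below. In all 13 other alternatives to the main test, the 7 called members kept their direction and their side of the threshold. Their log2 fold changes ranged from -1.80 to -1.65 for APCDD1, -1.90 to -1.64 for LGR5, -1.02 to -0.79 for TCF7, -0.63 to -0.55 for TCF7L2, -0.35 to -0.26 for LGR4, 0.44 to 0.60 for AXIN2 and 1.55 to 2.01 for WNT2B. NKD1 passed in none of them; leaving out 1 library at a time gave values between -0.135 and 0.007, the highest without control replicate 1, the only change of sign. Against a null of a 1.5-fold change, 1130 genes were higher and 1153 lower, with 1 member higher (WNT2B) and 3 lower, and 6 other pathway genes higher and 13 lower; this null asks for larger changes by its construction. Without division by exon length, the share of TCF7 was 16.25% in inactivated and 19.35% in control libraries, since its exon length is long, and that of LGR5 in control libraries 21.12%. LGR5's control share was 22.48% in lane 1 alone and 20.97% in lane 2 alone, and stayed above that in inactivated libraries. With neighbours taken within 2 Mb, AXIN2 lay 0.14 above their median and NKD1 -0.32 from it. The median log2 fold change of all genes stayed between -0.005 and 0.025. No paired analysis was possible because the labels give no replicate numbers; those used here follow the order of deposit, only name the libraries and pair none.

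Shallow members limit the precision: LGR5 and APCDD1 vary by counting alone by 9.45% and 6.82% between inactivated libraries. LEF1 and TCF7L1 allow no statement on change.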
